A study of Mus musculus with 12 samples.

Results

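Very wide regions of open chromatin were examined in bone marrow of the inbred mouse strain NZO/HILtJ, which tends to become obese and diabetic. A wide peak was defined as a consensus peak on a numbered chromosome with 3000 bp or more between its start and end. This rule used width alone and gave 2583 wide peaks among the 75281 peaks of the deposited table. A further 14 peaks of that width lay on X and Y and were not included. The 4 groups were NZO females aged 18 months, NZO males aged 18 months, NZO females aged 3 months and NZO males aged 3 months, with 3 mice each. The labels give no genotype other than the strain and no treatment. The protocol describes a sort of T cells by CD3e and CD8, whereas the sample labels name bone marrow and no sorted cells, so the libraries are called bone marrow here.

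The deposited counts ranged from 7668099 to 12756647 per library over all peaks. Marker genes were looked up by the peaks that hold their start sites. Start sites were not known for every gene, and a gene without one counts as having no start in a peak. Peaks at the starts of 25 of 32 neutrophil and monocyte genes summed to between 447.7 and 735 CPM (counts scaled to the library total times its TMM factor) per library, and those at 20 of 36 erythroid genes to between 786.4 and 1554 CPM. Only 6 of 22 T and NK cell genes had a known start in a peak, and Cd3e, Cd8a and Cd4 had none in a tested peak. None of 8 marrow stroma and endothelium genes had a known start in a peak. The 18-month females were sequenced in run 14 and the 18-month males in run 15. The 3-month females came from runs 28, 29 and 31 and the 3-month males from runs 29, 30 and 31, 1 mouse each. Age therefore cannot be told apart from run and date, and at 18 months sex cannot be told apart from run. P-values measure the spread between single mice within these groups.

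In ATAC-seq the Tn5 transposase inserts adapters where DNA is not covered by nucleosomes, so the count over a region reflects how accessible it is. Most accessible sites are short, a single promoter or enhancer. Long continuous stretches arise where a promoter and its neighbouring enhancers lie side by side, as at genes that set a cell's identity and at highly transcribed gene clusters such as those for histones. They can also arise where reads from repeated sequence pile up. In bone marrow such stretches come from a mixture of erythroid, myeloid, lymphoid and progenitor cells. In a mixed tissue, fewer cells of a type and lower accessibility per cell cannot be told apart.

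Most wide peaks held the start of a protein-coding gene, so the sequence just upstream of such starts is shown first. Of 21900 protein-coding genes in RefSeq for GRCm38.p6, 16457 had a start window in the sequence table, counting numbered chromosomes. A window is the 250 bases before a start, written 5′ to 3′ on the strand of the gene. Sptb, Slc22a23 and Hbq1b are starts inside wide peaks among the 8 with the largest fall from 3 to 18 months. Klf1 and Kel are starts of erythroid genes in wide peaks that also fell, and Jun lies in a wide peak that rose. Capitals mark matches to the letters of the GATA motif, searched on both strands as AGATAA or with the last base changed (AGATAG), and as TGATAA or likewise TGATAG.
Sptb (chr12:76710548-76710797, minus strand): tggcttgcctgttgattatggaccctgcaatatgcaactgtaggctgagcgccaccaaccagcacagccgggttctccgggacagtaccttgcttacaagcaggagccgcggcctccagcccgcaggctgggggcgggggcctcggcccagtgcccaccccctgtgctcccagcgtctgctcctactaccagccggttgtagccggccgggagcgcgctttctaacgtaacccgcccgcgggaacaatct
Slc22a23 (chr13:34345219-34345468, minus strand): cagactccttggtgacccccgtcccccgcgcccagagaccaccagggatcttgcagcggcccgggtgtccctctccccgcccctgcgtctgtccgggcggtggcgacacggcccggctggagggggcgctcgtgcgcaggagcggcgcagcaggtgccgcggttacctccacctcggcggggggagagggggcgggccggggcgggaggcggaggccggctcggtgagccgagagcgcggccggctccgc
Hbq1b (chr11:32286714-32286963, plus strand): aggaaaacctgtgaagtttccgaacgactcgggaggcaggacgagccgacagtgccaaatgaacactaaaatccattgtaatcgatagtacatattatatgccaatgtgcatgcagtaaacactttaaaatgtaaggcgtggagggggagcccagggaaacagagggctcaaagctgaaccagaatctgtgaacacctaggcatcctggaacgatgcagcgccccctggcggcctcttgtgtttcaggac
Klf1 (chr8:84901732-84901981, plus strand): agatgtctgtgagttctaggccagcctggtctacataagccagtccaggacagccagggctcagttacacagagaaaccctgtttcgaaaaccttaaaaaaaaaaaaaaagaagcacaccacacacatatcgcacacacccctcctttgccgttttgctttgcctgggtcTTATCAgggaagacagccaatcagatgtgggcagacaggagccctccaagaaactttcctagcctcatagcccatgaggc
Kel (chr6:41704326-41704575, minus strand): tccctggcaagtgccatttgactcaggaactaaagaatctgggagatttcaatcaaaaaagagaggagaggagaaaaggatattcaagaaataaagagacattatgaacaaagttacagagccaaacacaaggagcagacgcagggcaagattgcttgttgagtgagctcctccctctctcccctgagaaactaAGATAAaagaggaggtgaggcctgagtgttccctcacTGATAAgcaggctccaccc
Jun (chr4:95052223-95052472, minus strand): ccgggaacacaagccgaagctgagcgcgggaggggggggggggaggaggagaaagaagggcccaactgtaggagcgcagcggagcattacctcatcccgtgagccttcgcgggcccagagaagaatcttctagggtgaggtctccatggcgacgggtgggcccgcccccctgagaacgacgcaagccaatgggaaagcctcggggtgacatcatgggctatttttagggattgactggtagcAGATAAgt
The Slc22a23 window held 32 CpG dinucleotides and was 78.4% G or C, and the Sptb window held 18 CpG at 65.2% G or C. The Kel window held 1 CpG and 2 GATA matches, and the Klf1 window held 3 CpG and 1 match. The Hbq1b and Jun windows lay between these, with 10 and 15 CpG. The Sptb, Slc22a23 and Hbq1b windows held no match to these letters, and the Jun window held 1.

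Over all 2146 windows whose start lay in a wide peak, 76.8% had a ratio of observed to expected CpG of 0.6 or more, a usual criterion for CpG-rich sequence. The share was 68.6% of 8784 windows in narrower peaks, 16.9% of 9155 windows in no peak and 45.9% of all 20085 windows. The letters GGGCGG, bound by SP and KLF factors, occurred on either strand in 65.4% of windows in wide peaks and in 43.4% of all windows. The TATA letters TATAAA occurred in 5.41% and 11.7%. GATA matches occurred in 15.1% of windows in wide peaks, 16.3% in narrower peaks, 32% in no peak and 23.4% of all windows. Windows in wide peaks lower at 18 months held a GATA match in 14.6% of cases, close to the 15.1% in wide peaks not called. Windows in wide peaks higher at 18 months numbered only 25, of which 40% held a match and 20% were CpG-rich. These are matches of letters in short windows, and no binding was measured.

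Wide peaks made up 3.49% of the peaks on numbered chromosomes but 15.7% of the peak length, 11.4 of 72.7 Mb. Their median width was 3802 bp, against 705 bp for all tested peaks. The quartiles were 3298 and 4750 bp, 538 reached 5 kb and 59 reached 10 kb. They were also denser: the median level was 16.3 CPM per kb, against 10.1 CPM per kb in narrower peaks, and 94.2% of wide peaks exceeded the latter value. All 2583 passed the filter on low counts, and the smallest count of any wide peak in any library was 111. By chromosome, their share of peaks ran from 1.75% on chromosome 18 to 4.6% on chromosome 19.

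A known protein-coding start lay inside 1479 wide peaks, and 261 of these held starts of 2 or more genes. Another 645 had their centre inside a gene without holding a known start. A further 381 lay within 50 kb of the nearest gene end, and 78 had no protein-coding gene within 50 kb. Starts were known only for genes with a start window, so peaks centred in a gene or beside one may also hold a start. The peaks were named for 2145 genes, 267 of which had 2 or more wide peaks. Where a single gene started inside, the peak reached a median of 1747 bp upstream and 2113 bp downstream of the start. The longer arm was downstream in 60.3% of 1218 such peaks, close to the 61.5% in narrower peaks.

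Levels of the peaks nearest the width limit are given as a description. Just inside, the peaks at Tmem50b (3000 bp), Rpl10a (3000 bp) and Tiprl (3001 bp) averaged 61.9, 53.1 and 51.6 CPM at 18 months and 65.4, 53.3 and 64.0 CPM at 3 months. Just outside, the peaks at Rabif, Morn1 and Ccni, all 1 bp under the limit, averaged 54.7, 31.3 and 67.8 CPM at 18 months and 64.2, 30.8 and 83.7 CPM at 3 months.

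The share of each library's counts that fell in wide peaks was lower at 18 than at 3 months. Among counts on numbered chromosomes the 18-month libraries averaged 20.44% ± 0.349 (SD, n = 6) and the 3-month libraries 22.11% ± 0.518 (SD, n = 6). The lowest 3-month library, a male, stood at 21.21%, and the highest 18-month library, a female, at 20.94%, so the ages did not overlap. At 18 months the females held from 20.59% to 20.94% and the males from 20.02% to 20.27%. At 3 months the sexes overlapped, with 22% to 22.72% in females and 21.21% to 22.42% in males. Within run 29 the 3-month female stood at 22% and the male at 22.42%, and within run 31 they stood at 22.03% and 21.21%. As a ratio inside each library, which needs no scaling factor, wide peaks received 25.03 to 26.48 counts per 100 counts in other peaks at 18 months and 26.92 to 29.40 at 3 months.

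**Figure D1:**
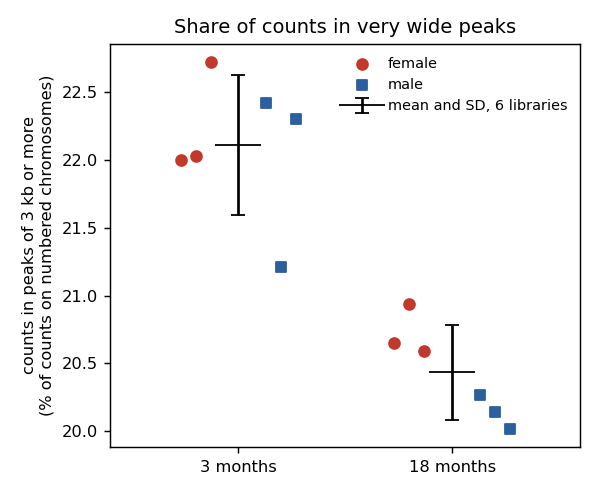
Share of counts on numbered chromosomes that lay in peaks of 3 kb or more (vertical axis, %, not starting at 0), by age, with 1 point per library and the mean and SD of 6 libraries. The 18-month libraries sit between 20.02% and 20.94%, all below the 3-month libraries at 21.21% to 22.72%.

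Individual wide peaks were then compared between the ages with sex as a covariate, using edgeR's quasi-likelihood test with TMM factors. At a Benjamini-Hochberg adjusted p under 0.05, 1133 wide peaks were lower at 18 months (43.9%), against 11.6% of all tested peaks. By the same rule 143 were higher (5.54%), against 9.43% of all tested peaks. In both directions together 49.4% of wide peaks were called, against 21.0% of all tested peaks. The median log2 fold change of wide peaks was -0.21, a ratio of 0.87, while that of all tested peaks was 0.02. The CPM ranges of the ages were fully apart at 689 wide peaks in the lower direction (background 5.04% of all tested peaks) and at 47 in the higher direction (background 2.2%).

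The number of falls depended strongly on the scaling. With total counts in place of TMM factors, 981 wide peaks were lower (background 8.82%) and 270 higher (background 14.9%), which raised the higher share of calls from 11.2% to 21.6%. The median moved to -0.13, and that of all tested peaks to 0.10. With offsets smoothed on peak abundance, 579 were lower (background 10.3%) and 588 higher (background 9.69%), and 50.4% of calls were then higher. With offsets smoothed on peak width, 513 were lower (background 9.45%) and 543 higher (background 8.55%), or 51.4% higher. The medians under these offsets were 0.01 and 0.02, so the shift of wide peaks as a whole was not seen once each library was levelled by abundance or by width. Width offsets remove any shift that wide peaks share, and abundance offsets remove any shift shared by peaks of like abundance. The TMM factors themselves ran from 0.983 to 1.054 at 18 months and from 0.929 to 1.029 at 3 months. Whether the shift of wide peaks reflects a difference in signal over background between libraries was not tested.

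Calls that did not depend on this choice were counted apart. Under all 6 scalings, 511 wide peaks were lower (background 6.92%) and 118 were higher (background 6.22%). Of the 1133 falls with TMM factors, 981 were still called lower with total counts, 579 with abundance offsets and 513 with width offsets, and 0 were called higher under any of these. Of the 143 rises, all 143 were still called higher with total counts and with both kinds of offset.

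**Figure D2:**
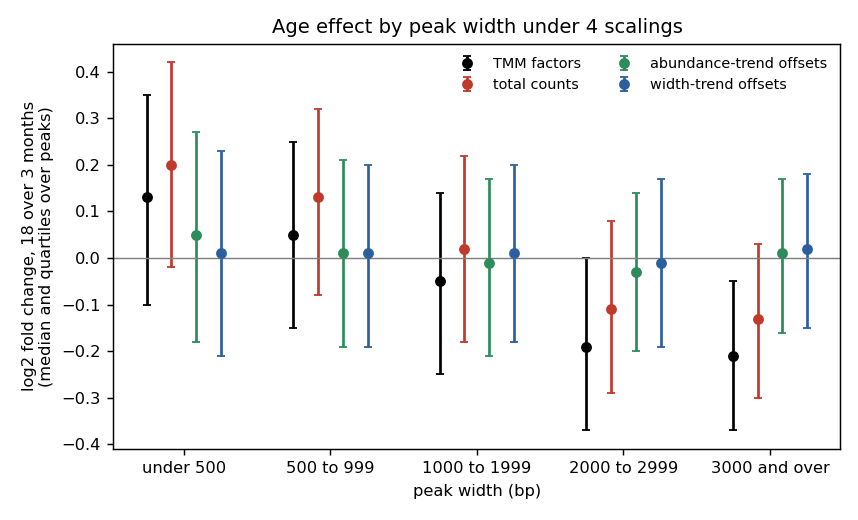
Median log2 fold change (18 over 3 months) and quartiles over peaks in 5 width classes (horizontal axis, bp) under 4 scalings. With TMM factors the medians run from 0.13 under 500 bp to -0.21 at 3000 bp and over, and with offsets smoothed on width they lie between -0.01 and 0.02.

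With TMM factors the age difference changed step by step with width. The median log2 fold change was 0.13 in peaks under 500 bp, 0.05 from 500 to under 1000 bp, -0.05 from 1000 to under 2000 bp, -0.19 from 2000 to under 3000 bp and -0.21 at 3000 bp and over. The share called lower ran from 2.77% in the narrowest class to 38.4% from 2000 to under 3000 bp and 43.9% in the widest. Wide peaks all fall in the most abundant quartile, so they were also set beside the 15869 peaks under 3000 bp in that quartile. Of these, 25.5% were lower and 9.58% higher, with a median of -0.08. Among wide peaks themselves width made little difference to the median: it was -0.20 from 3000 to under 4000 bp, -0.22 from 4000 to under 6000 bp and -0.20 from 6000 bp upwards. The widest of these classes held more rises, 40 of 297 peaks, against 66 of 1471 in the narrowest.

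Falls and rises lay in different places relative to genes. Of the 1479 wide peaks with a known gene start inside, 700 were lower and 20 higher. Of the 645 centred in a gene, 303 were lower and 30 higher. Of the 381 beside a gene, 121 were lower and 64 higher. Of the 78 with no gene within 50 kb, 9 were lower and 29 higher, and this order held for calls made under all 6 scalings, with 5 lower and 25 higher. Narrower peaks had a like order, with 27.3% lower and 3.62% higher of 7317 at starts and 6.47% lower and 18.2% higher of 6198 far from genes. Of the 1194 wide peaks at a CpG-rich start, 576 were lower (48.2%) and 5 higher (0.419%). With a start but no CpG-rich window, 124 of 285 were lower (43.5%) and 15 higher (5.26%). For all wide peaks the shares were 43.9% lower and 5.54% higher.

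The 8 largest falls with no overlap between the ages included several genes of the red blood cell, and all 8 were called lower under all 6 scalings. Slc4a1 encodes band 3, the chloride and bicarbonate exchanger of the red cell membrane. The peak 9637 bp from its nearest end (chr11:102374918-102378036, 3118 bp), which overlaps the long non-coding RNA Bloodlinc, stood at 28.1, 32.3 and 35.6 CPM at 18 months (lowest, median and highest of 6) and at 64.8, 74.8 and 88.8 CPM at 3 months. Every 3-month library was far above every 18-month library, and the log2 fold change came to -1.25 ± 0.0965 (SE, edgeR adjusted p = 4.39e-13). Slc22a23 encodes an orphan member of the organic ion transporter family. The peak over its start (chr13:34343388-34346585) stood at 21.4, 23.5 and 25.8 CPM at 18 months and at 42.8, 50.2 and 62.4 CPM at 3 months. The 18-month libraries lay close together and below all 3-month libraries, and the log2 fold change came to -1.13 ± 0.103 (SE, edgeR adjusted p = 1.61e-11).

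Hbq1b encodes a theta-globin and lies in the alpha-globin cluster. The peak over its start (chr11:32284215-32287961) also overlaps Hba-a1 and stood at 33.3, 35.8 and 41.7 CPM at 18 months and at 63.1, 82.9 and 95.1 CPM at 3 months. The ages did not overlap, with a log2 fold change of -1.13 ± 0.0989 (SE, edgeR adjusted p = 7.42e-12). Hbq1b and Hba-a1 have near-identical copies close by, so the division of reads between copies is uncertain. Ormdl3 encodes a regulator of sphingolipid synthesis in the endoplasmic reticulum. The peak centred in it (chr11:98579438-98583874) stood at 41.0, 44.0 and 47.3 CPM at 18 months and at 80.3, 96.8 and 111 CPM at 3 months. The 3-month libraries were again all higher, with a log2 fold change of -1.12 ± 0.0911 (SE, edgeR adjusted p = 9.93e-13). They were followed by peaks at Sptb (-1.06), which encodes the beta chain of erythroid spectrin, at the palmitoyltransferase gene Zdhhc19 (-1.05), at chr6:120602757-120608277 with no named gene (-1.05) and at Gse1 (-1.04). Taken by sex, the log2 fold changes of the 8 ran from -0.98 to -1.23 in females and from -0.97 to -1.35 in males.

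**Figure D3:**
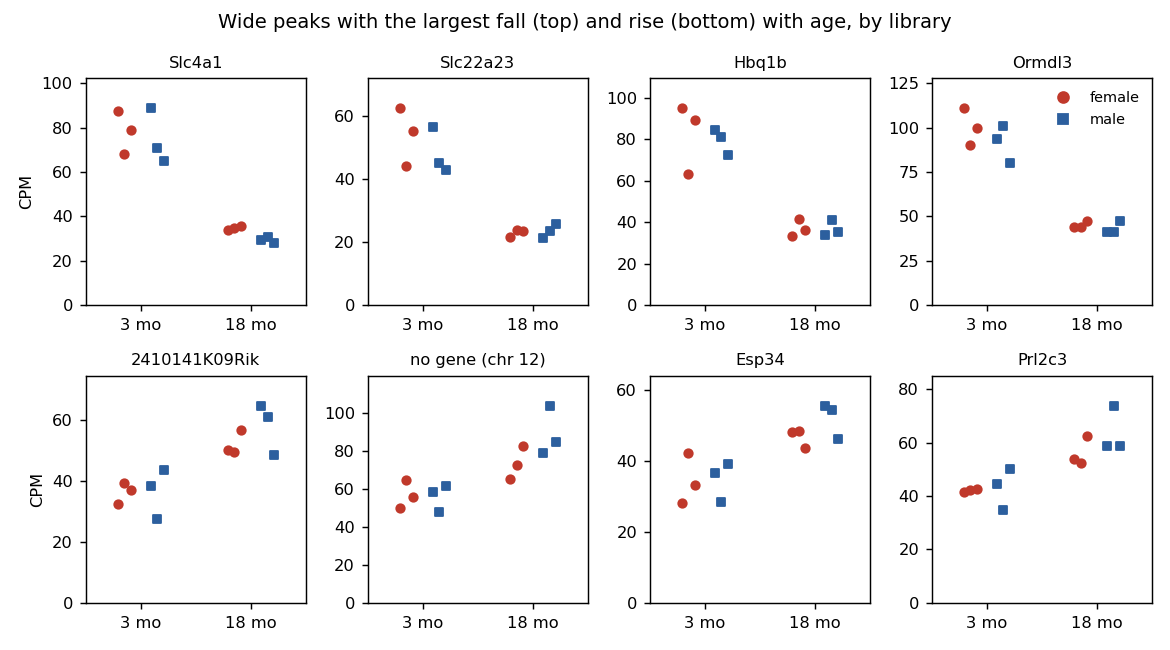
CPM per library (vertical axes, from 0) at the 4 wide peaks with the largest fall (top) and the 4 with the largest rise (bottom) from 3 to 18 months, with circles for females and squares for males. The ages do not overlap in any panel, and the falls leave less than 0.5 of the 3-month level while the largest rise is a ratio of 1.51.

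The 8 largest rises were smaller, and none of them held a known start of a protein-coding gene. Of these, 1 was centred in a gene, 5 were named for the nearest gene and 2 had none within 50 kb. The largest was in 2410141K09Rik, a RIKEN gene with no assigned name (chr13:66425240-66428785). It stood at 48.3, 53.4 and 64.6 CPM at 18 months and at 27.4, 37.6 and 43.4 CPM at 3 months. The ages did not overlap, with a log2 fold change of 0.60 ± 0.102 (SE, edgeR adjusted p = 1.76e-05). The second, on chromosome 12 with no gene in range (chr12:19127210-19133143), stood at 65.4, 80.8 and 104 CPM at 18 months and at 48.2, 57.2 and 64.9 CPM at 3 months. Its lowest 18-month library was just above its highest 3-month library, and the log2 fold change came to 0.52 ± 0.0975 (SE, edgeR adjusted p = 8.38e-05).

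Esp34 belongs to a family of secreted exocrine gland peptides that act as pheromones. The peak named for it, 22716 bp away (chr17:38528078-38531476), stood at 43.7, 48.4 and 55.5 CPM at 18 months and at 28.1, 35 and 42.1 CPM at 3 months. The log2 fold change came to 0.51 ± 0.102 with no overlap (SE, edgeR adjusted p = 0.000184). Prl2c3 belongs to the prolactin family expressed in placenta. The peak named for it, 6032 bp away (chr13:12806125-12810510), stood at 52.2, 58.6 and 73.8 CPM at 18 months and at 34.7, 42.5 and 50.2 CPM at 3 months. The ages were close but apart, with a log2 fold change of 0.48 ± 0.0973 (SE, edgeR adjusted p = 0.000211). They were followed by peaks 3888 bp from the odorant receptor gene Olfr1402 (0.48), 24573 bp from the predicted gene Gm40847 (0.46) and 13751 bp from LOC108168187 (0.45), and chr2:167776396-167779711 with no named gene (0.44). All 8 were called higher under all 6 scalings. Several of these neighbours belong to families with near-identical copies, where the placement of reads is uncertain. Whether the peaks hold repeated sequence, and how many copies NZO mice carry relative to the reference, was not tested.

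The widest peaks of all did not share a direction. The widest, 58987 bp on chromosome 1 (chr1:88211305-88270292), covers Mroh2a and the UDP-glucuronosyltransferase genes of the Ugt1a cluster, which conjugate bilirubin and drugs in liver. It stood at 1640, 1980 and 2230 CPM at 18 months and at 1450, 1530 and 1620 CPM at 3 months. The highest 3-month library was just under the lowest 18-month library, and the log2 fold change came to 0.34 ± 0.0760 (SE, edgeR adjusted p = 0.000821). The second, 21027 bp on chromosome 10 (chr10:81370928-81391955), spans the neighbouring genes Dohh, which encodes an enzyme of hypusine formation, and Fzr1, which encodes an activator of the anaphase-promoting complex. It stood at 328, 339 and 364 CPM at 18 months and at 365, 411 and 434 CPM at 3 months. The ages did not overlap, with a log2 fold change of -0.25 ± 0.0777 (SE, edgeR adjusted p = 0.0167), but it was 0.04 with abundance or width offsets.

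The third, 20131 bp at the predicted gene Gm13212 on chromosome 4 (chr4:145576401-145596532), stood at 361, 377 and 441 CPM at 18 months and at 260, 341 and 366 CPM at 3 months. The ages overlapped, the log2 fold change came to 0.24 ± 0.0853 (SE, edgeR adjusted p = 0.0378), and leaving out any 1 of 9 libraries ended the call, with a log2 fold change of 0.16 without the 3-month male of run 30. The Gm13212 call also ended with TMM factors from narrower peaks (edgeR adjusted p = 0.0567) and without the filter (edgeR adjusted p = 0.0633), and held with total counts, abundance offsets and width offsets at 0.31, 0.51 and 0.52. Of the next 5 by width, the 16733-bp peak in Sfi1, a centrosomal gene, was higher at 0.28. This peak was also among the densest, at 116 CPM per kb against a median of 16.3 for wide peaks. Whether it holds repeated sequence was not tested. The 16594-bp peak at Cd244a, a receptor of NK cells, was higher at 0.25. The Cd244a call ended without 18-month male 38 (edgeR adjusted p = 0.0507) or without 18-month male 39 (edgeR adjusted p = 0.0511). The 19446-bp peak spanning Hdhd3, Bspry and the heme synthesis gene Alad was lower at -0.37, and lost its call with abundance and with width offsets, at -0.09 under both (edgeR adjusted p = 0.407 and 0.354). The peak on chromosome 17 with no gene and the one beside Gm45988 were not called, at -0.03 and -0.04.

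The erythroid list held more wide peaks than the lists of other marrow lineages, and nearly all of them fell. Of 36 erythroid genes, 18 had 35 wide peaks, of which 34 were lower, 0 higher and 1 not called, with a median log2 fold change of -0.77. For all tested peaks the median was 0.02 and 11.6% were lower. Under all 6 scalings 31 of the 35 were lower. The erythroid genes had been listed with earlier results of these data known, so their direction here is no independent evidence. Without them, 1099 of 2548 wide peaks were lower and 143 higher, with a median of -0.20. The summed CPM of all peaks at known erythroid starts was 786.4 to 926.1 at 18 months and 1217 to 1554 at 3 months. It therefore moved with age over the listed genes with such a peak. The part this difference has in the falls of other wide peaks was not tested.

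Among transcription regulators of that lineage, Zfpm1 encodes FOG-1, a partner of GATA-1, and had 7 wide peaks, all lower. The widest (16473 bp, chr8:122276018-122292491) stood at 180, 207 and 226 CPM at 18 months and at 281, 327 and 359 CPM at 3 months, with a log2 fold change of -0.67 and no overlap. Klf1, which encodes the erythroid activator of the beta-globin gene, had a peak over its start (chr8:84900147-84904147) at 39.3, 50.6 and 55.3 CPM at 18 months and at 77.8, 82.2 and 89.3 CPM at 3 months. The ages lay well apart, with a log2 fold change of -0.77 ± 0.0905 (SE, edgeR adjusted p = 6.45e-09). Nfe2, which encodes a subunit of the NF-E2 factor, was lower by a log2 fold change of -0.43 at its 13434-bp peak, and no longer passed with width offsets at -0.15 (edgeR adjusted p = 0.0556). Lmo2, an adaptor between GATA-1 and TAL1, had 3 wide peaks, of which those of 3840 and 3185 bp fell (-0.65 and -0.52) and the one of 3692 bp was not called (0.08). With abundance and width offsets the latter was called higher, at 0.28 and 0.30 (edgeR adjusted p = 0.00302 and 0.00396).

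Among membrane and heme genes, the 4 wide peaks of Slc4a1 were lower by log2 fold changes of -1.25 to -0.99 and the 4 of Sptb by -1.06 to -0.47. The blood group gene Kel was lower at -0.94, with 20.2, 22.6 and 27.8 CPM at 18 months and 37.8, 43.7 and 52.7 CPM at 3 months. Tfrc, the transferrin receptor gene, was lower at -0.69, and the heme synthesis genes Cpox and Urod were lower at -0.59 and -0.31. The Urod call was lost with abundance and with width offsets, at -0.06 under both (edgeR adjusted p = 0.506 and 0.583).

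Wide peaks at genes of other lineages were few. The neutrophil and monocyte list had 4, at Cebpb (0.02), Gfi1 (-0.15), Prtn3 (0.16) and Spi1 (0.25), all transcription factor genes except the protease gene Prtn3, and 0 of 4 were called. With total counts, abundance offsets or width offsets Spi1 and Prtn3 were called higher, at 0.33 to 0.47 and 0.24 to 0.40. Cebpb was called higher with abundance offsets at 0.28 (edgeR adjusted p = 0.000614) and with width offsets at 0.27 (edgeR adjusted p = 0.00457). Spi1, which encodes PU.1, was also called without the 3-month male of run 30, at 0.36 (edgeR adjusted p = 0.000702). Over peaks of any width at their starts, 13 of 25 neutrophil and monocyte peaks were higher and 0 lower (background 9.43% and 11.6%), with 608.1 to 690 summed CPM at 18 months and 447.7 to 735 at 3 months, so the ages overlapped. The B cell list had 1 wide peak, at Ikzf3 (-0.12, not called), and the T and NK cell list had a fall at the kinase gene Lck (-0.40) and no call at Klrb1c (0.09). Both depended on the scaling: with width offsets the Lck call was lost at -0.17 (edgeR adjusted p = 0.125) and Klrb1c was called higher at 0.34 (edgeR adjusted p = 0.000217). The plasma cell, eosinophil, and stroma lists had none.

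The megakaryocyte list had 2 wide peaks, at the platelet receptor gene Gp9 (-0.65) and at Vwf (-0.72), which encodes von Willebrand factor. Both were lower under all 6 scalings, beside 511 of all 2583 wide peaks. Of 9 wide peaks at stem and progenitor genes 5 were lower and 0 higher, beside 43.9% lower of all wide peaks. Among the 5 were 3 of Ikzf1 (-0.55, -0.33 and -0.31), which encodes the lymphoid regulator Ikaros, and 1 of Lyl1 (-0.40). Only the Ikzf1 peak at -0.55 was lower under all 6 scalings. A peak of Zfp36l2 (chr17:84178683-84183843) and a peak of Runx1 (chr16:92824466-92828914) were not called, both at -0.01, and stood at 0.21 to 0.25 with abundance or width offsets.

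Of 10 wide peaks at immediate early and NF-kB feedback genes, 2 were higher, 2 lower and 6 not called, beside 5.54% higher and 43.9% lower of all wide peaks. Jun, which encodes a subunit of AP-1, stood at 93.0, 105 and 130 CPM at 18 months and at 77.8, 88.6 and 107 CPM at 3 months. These ranges overlapped, and the log2 fold change came to 0.30 ± 0.0950 (SE, edgeR adjusted p = 0.0201), called higher under all 6 scalings. Zfp36, which encodes an mRNA decay factor, was higher at 0.27 (edgeR adjusted p = 0.042), but leaving out any 1 of 9 libraries ended that call, and so did DESeq2 size factors, TMM factors from narrower peaks, the DESeq2 Wald test and fitting without the filter (adjusted p of 0.0567 to 0.0957, edgeR or DESeq2). With total counts, abundance offsets and width offsets Zfp36 kept its call, at 0.35, 0.56 and 0.54. Its log2 fold change was 0.52 in females and 0.01 in males. The related AP-1 gene Junb was lower at -0.31 at a 15291-bp peak, and lost its call with abundance and width offsets, at -0.02 and -0.03 (edgeR adjusted p = 0.832 and 0.784). With both kinds of offset Egr1 (0.07 with TMM factors) and Ier3 (0.12) were called higher, at 0.27 to 0.36. Of the 2 wide peaks of Btg2, an antiproliferative gene, the one over its start was lower at -0.45, and the other, 8903 bp away, was not called at -0.21 (edgeR adjusted p = 0.108).

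Wide peaks at general regulators were lower or not called under TMM factors. Of 14 wide peaks at splicing and RNA-binding factor genes, 7 were lower and 0 higher, with a median of -0.26, beside 43.9% lower and a median of -0.21 for all wide peaks, and 2 were lower under all 6 scalings, Hnrnpu (-0.51) and Srsf6 (-0.52). Srsf1 and Srsf4 were both lower at -0.35, and lost their calls with both kinds of offset, standing at -0.11 with width offsets (edgeR adjusted p = 0.26 and 0.318). Of 9 at chromatin regulator genes, 3 were lower and 0 higher, beside 43.9% lower of all wide peaks. With both kinds of offset Hnrnpl, a splicing factor gene, and the 3179-bp peak of the demethylase gene Kdm6b were called higher (0.21 to 0.28). The Polycomb methyltransferase gene Ezh2 was lower at -0.52 under all 6 scalings, while Chd4 (-0.28) and Asxl1 (-0.26) were not called under all. The Chd4 call also ended without 18-month male 40 (edgeR adjusted p = 0.0646).

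**Figure D4:**
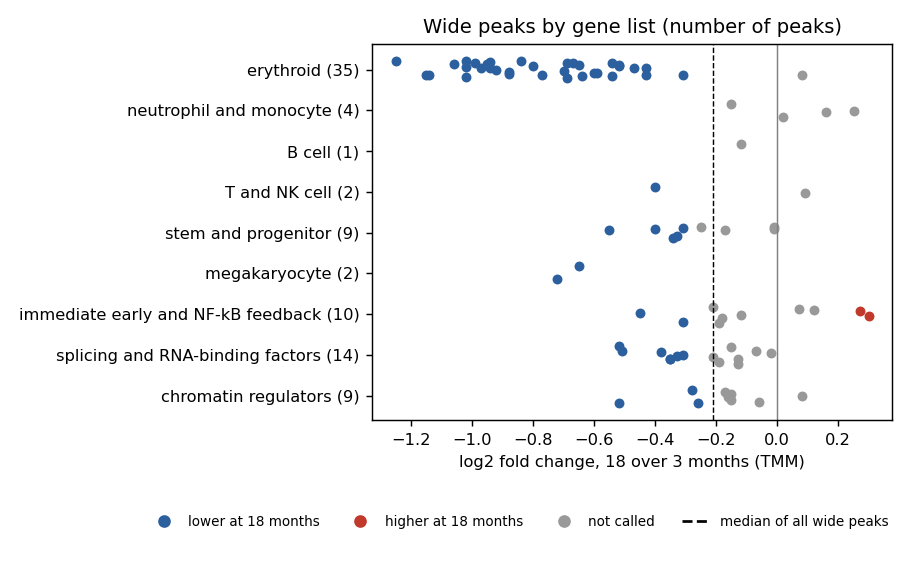
Log2 fold change (18 over 3 months, TMM factors, horizontal axis) of each wide peak named for a gene of 9 lists, with 1 point per peak and the number of peaks in brackets. The dashed line is the median of all wide peaks, -0.21, and 34 of the 35 erythroid points are lower and called.

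Wide peaks also lay near each other, and groups of neighbours seldom held calls in both directions. Joined where no more than 50 kb apart, a grouping made after values had been seen, they formed 1083 single peaks and 467 groups, 75 of them with 5 or more peaks. The largest, 23 peaks from Ptbp1 to Fam174c on chromosome 10 (chr10:79850858-80175686), had 2 falls and 0 rises. Groups of 5 or more held 532 of the 2583 wide peaks, with 63 of the 143 rises (44.1%) and 183 of the 1133 falls (16.2%). Over all wide peaks 5.54% were higher and 43.9% lower. Of these 75 groups, 12 held a rise, 57 held a fall and 1 held both.

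Groups in which most peaks fell included regions of red cell and histone genes. In the Slc4a1 region (chr11:102283595-102431528) 6 of 9 wide peaks were lower, from Ubtf through Slc4a1 to Slc25a39, while those at Tmub2, Gm33851 and Grn were not called. Summed over the 9, CPM was 460 to 509 at 18 months and 676 to 854 at 3 months. In the alpha-globin region (chr11:32236495-32302814) 6 of 6 were lower, including 4 in Nprl3, whose introns hold the known alpha-globin enhancers, with 207 to 231 summed CPM at 18 months and 328 to 456 at 3 months. In the Zfpm1 region (chr8:122271974-122338576) 8 of 8 were lower, with 433 to 491 and 672 to 802 summed CPM. In none of these 3 regions did the summed CPM of the ages overlap.

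The replication-dependent histone genes, which are transcribed during S phase of the cell cycle, lie in clusters on chromosome 13. In 1 group (chr13:23516776-23623735) 8 of 8 wide peaks were lower, at log2 fold changes of -0.67 to -0.33, with 692 to 944 summed CPM at 18 months and 1010 to 1330 at 3 months. In the next (chr13:23681270-23765953) 6 of 6 were lower, at -0.75 to -0.44, with 498 to 692 and 764 to 965 summed CPM. The largest falls of the 2 groups were at H1f3 (-0.67) and H3c2 (-0.75). Under all 6 scalings 6 of the 8 and 6 of the 6 were lower. Histone genes of the same type are alike in coding sequence, so the placement of reads within that sequence is uncertain.

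In 7 of the groups of 5 or more, most of the peaks rose. In the Prl2c3 region (chr13:12806125-12941136) 17 of 17 wide peaks were higher under all 6 scalings, at 0.32 to 0.48, although 10 of them had no protein-coding gene within 50 kb. Summed CPM was 1340, 1520 and 1740 at 18 months and 924, 1230 and 1280 at 3 months, with no overlap. Around Gm40847 on chromosome 12 (chr12:19080164-19162776) 6 of 6 were higher, at 0.33 to 0.52. Among zinc finger genes on chromosome 4 (chr4:147389792-147607950, Zfp978 to Zfp985) 8 of 12 were higher, and at BC035044 and Clec2g on chromosome 6 (chr6:128837828-128979076) 8 of 11. The summed CPM of the ages did not overlap at BC035044 and Clec2g (1350 to 1420 at 18 months, 1080 to 1200 at 3 months) or around Gm40847 (310 to 509 and 236 to 306), and overlapped at the zinc finger genes (1420 to 1720 and 1020 to 1430). On chromosome 5, 7 of 9 were higher near Gm10354 and Gm17019 (chr5:14953776-15055113) and 4 of 5 near Speer4d and Speer4c (chr5:15587263-15681961). At Itln1 and Cd244a on chromosome 1 (chr1:171513296-171581925) 4 of 6 were higher, at 0.16 to 0.30 over the 6. In these 3 groups too the summed CPM of the ages overlapped. No peak of these 7 groups was called lower. Several of these groups lie at gene families with similar copies, where the placement of reads is uncertain. Their peaks may therefore not be separate observations. Around Grm4 on chromosome 17, in contrast, 0 of 10 were called.

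**Figure D5:**
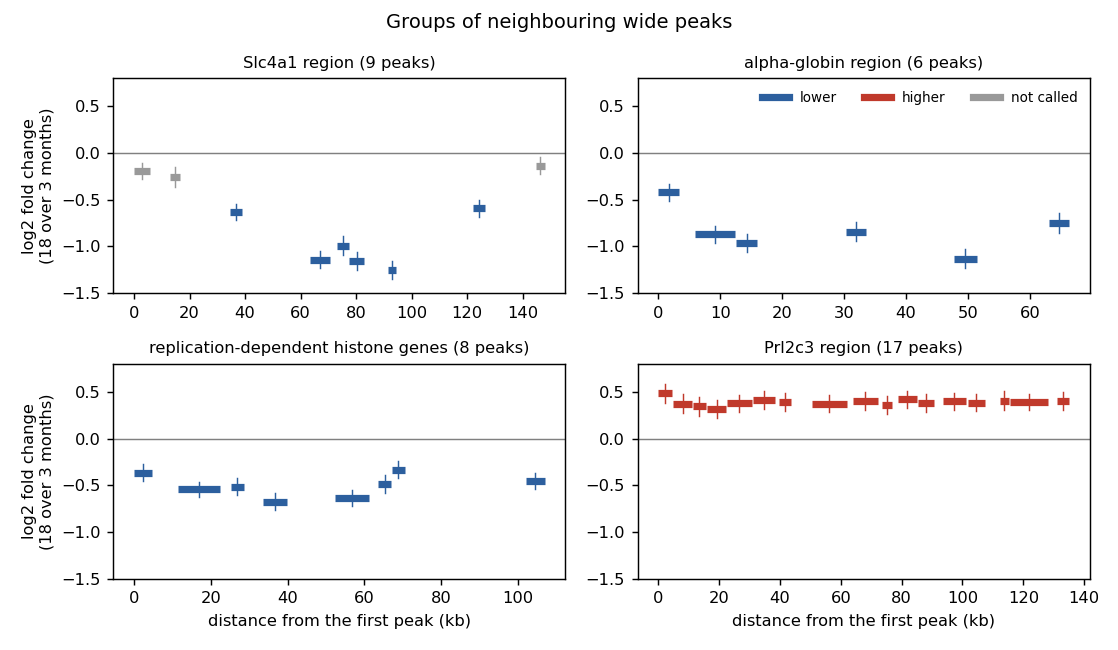
Log2 fold change (18 over 3 months, TMM factors) of each wide peak in 4 groups of neighbours, plotted by distance from the first peak (kb), with bars as long as the peaks and vertical lines of 1 SE. In the Prl2c3 region all 17 lie between 0.32 and 0.48, while in the Slc4a1 region values run from -1.25 to -0.13.

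Within each sex the falls again outnumbered the rises under TMM factors. In females 620 wide peaks were lower (background 6.2%) and 58 higher (background 5.7%), with a median log2 fold change of -0.13. In males 1054 were lower (background 8.18%) and 117 higher (background 3.21%), with a median of -0.29. With width offsets the balance moved to 379 lower and 364 higher in females and to 293 lower and 365 higher in males. With abundance offsets it was 545 lower and 297 higher in females, and 268 lower and 438 higher in males. Falls called in both sexes numbered 540, or 20.9% of wide peaks (background 3.57%). They made up 87.1% of the female and 51.2% of the male falls, beside 57.6% and 43.7% for all tested peaks. Rises called in both numbered 14, or 0.542% of wide peaks (background 0.685%). They made up 24.1% of the female and 12.0% of the male rises, beside 12.0% and 21.4% for all tested peaks, and 0 wide peaks were called in opposite directions.

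These counts depended on single libraries. The female rises numbered 10 without the 3-month female of run 31, 13 without 18-month female 36, 21 without the 3-month female of run 28, 26 without 18-month female 35 and 96 without the 3-month male of run 31. The female falls numbered 389 without the 3-month female of run 28. The male falls numbered 631 without the 3-month male of run 29, 661 without 18-month male 39 and 678 without 18-month male 38, and the male rises 51 without 18-month male 39, 70 without 18-month male 38 and 74 without the 3-month male of run 30.

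The difference between the sexes in the age effect was tested by the interaction. With TMM factors edgeR called 0 wide peaks (background 0.00532%), and the smallest adjusted p was 0.136. At an unadjusted p under 0.05 there were 337 (13.0%, background 9.99%), of which 285 had the lower age effect in males. DESeq2 called 2, total counts 3 and both kinds of offset 4 each. Without the 3-month male of run 31, the 3-month library with the smallest share of counts in wide peaks, 161 were called.

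For sex itself, averaged over the ages, edgeR called 0 wide peaks (background 0.162%), with a smallest adjusted p of 0.286. At an unadjusted p under 0.05 there were 161 (6.23%, background 7.57%), of which 138 were lower in males. DESeq2 called 0, abundance offsets 4 and width offsets 1, and 18 were called without the 3-month male of run 30. With sequencing run as a block, which compares the sexes within the 2 runs that hold both (4 libraries at 3 months), edgeR called 0 wide peaks (background 0.0545%), and 40 had an unadjusted p under 0.05 (1.55%, background 5.28%).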

How the data were processed

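ATAC-seq libraries of 12 mice were compared, grouped by the age and sex in the labels. The authors deposited a single table of counts for 75281 consensus peaks, which held whole numbers with a smallest value of 1, and these counts were used as deposited. Trimmomatic, BWA, MACS2, DiffBind and edgeR and the build mm10 are named in the submitters' processing notes. The consensus rule, the removal of duplicate reads, the treatment of reads with several matches and any shift of read ends are not given in the sources used here. Counts that keep duplicate reads understate the counting error.

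Depth was the total count in peaks, 7668099 to 12756647 per library, and intervals from counts would cover counting error only. The test took in the 75164 peaks that exceeded 1 CPM in 2 or more libraries, and CPM was computed with TMM factors. An additive model of age and sex was fitted in edgeR 4.0.16 (quasi-likelihood, R 4.3.3), with a second model of 4 group means for effects within a sex and the interaction. Benjamini-Hochberg adjustment ran over every tested peak, and 0.05 was the limit for a call. SEs were derived from the F statistic. Alternatives were total counts, DESeq2 1.42.0 (size factors and Wald test), TMM on peaks under 3 kb, loess offsets (span 0.3) on abundance or width, other filters, width limits of 2500 and 4000 bp, and each library left out. All 6 scalings means TMM, total counts, size factors, TMM on narrower peaks and both offsets. The same fit was tested on simulated data with 75151 peaks: it called 90% and 86% of peaks changed by -1 and 1 on the log2 scale, 26% and 32% of those changed by -0.5 and 0.5, and 0.00934% of unchanged peaks.

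A peak took the protein-coding gene (RefSeq, GRCm38.p6) whose known start lies inside it, nearest the centre if several. Otherwise it took the gene that holds its centre, and failing that the nearest gene end within 50 kb. Starts were known only for genes with a start window. Peaks named in the text were the 8 widest, the 8 largest falls and 8 largest rises with no overlap in CPM (1 per gene), those at listed genes, and those next to the width limit. The peaks, gene lists and rules were chosen with earlier results of these data known. Leaving out the densest 1% of wide peaks, leaving out libraries for the interaction and sex, the block by run, grouping by neighbours, and the CpG classes were chosen after seeing the data. Some genes of the erythroid list are not reported here by name.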

Additional observations from a re-analysis of the deposited data

Results flagged for a closer look

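At 3 of the wide peaks named above, a single library stood far from the other 5 of its age. Of 108 groups of 6 libraries examined, 3 met the criterion for a distant library, and chance alone gives about 1 in 20. The library was the 3-month male of run 30 each time. At Gm13212 (chr4:145576401-145596532) it was the lowest of its age at 260 CPM, the next being 333 CPM. At Zfp36l2 (chr17:84178683-84183843) it was the highest at 148 CPM, the next being 116 CPM. At Zfp36 (chr7:28377269-28387651) it was the highest at 322 CPM, the next being 232 CPM. No cause was tested.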

How the results depend on the processing

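With TMM factors 1133 wide peaks were lower and 143 higher at 18 months. Falls numbered 579 with abundance offsets and 513 with width offsets, and rises numbered 270 with total counts, 588 with abundance offsets and 543 with width offsets. Width offsets level wide peaks by construction, and abundance offsets level peaks of like abundance. The median log2 fold change moved from -0.21 to 0.01 (abundance) and 0.02 (width). In females, falls numbered 379 with width offsets, and rises 127 with total counts, 297 with abundance offsets, 364 with width offsets and 94 from female libraries alone. In males, falls numbered 268 with abundance offsets and 293 with width offsets, and rises 189 with total counts, 438 with abundance offsets and 365 with width offsets. Interaction calls numbered 3 with total counts, 4 with abundance offsets, 4 with width offsets and 2 with DESeq2, and sex calls 4 with abundance and 1 with width offsets, against 0 each. The share of counts in wide peaks was lower at 18 months by a difference of -1.68 percentage points, -2.24 with a limit of 2500 bp and -0.89 with 4000 bp. Leaving out 1 library in turn gave 974 to 1237 falls and 101 to 169 rises, 389 to 772 falls and 10 to 96 rises in females, 631 to 1471 falls and 51 to 161 rises in males, 0 to 161 interaction calls, 0 to 18 sex calls, medians of -0.23 to -0.18 and share differences of -1.86 to -1.56. Among named peaks called on at least 1 side of the change, signs turned with abundance and width offsets at Dohh (0.04 and 0.04), chr17:3014392 with no gene (0.26 and 0.26), Gm45988 (0.24 and 0.24), Zfp36l2 at chr17:84178683 (0.25 and 0.24) and Runx1 at chr16:92824466 (0.21 and 0.23), and with abundance offsets at Kdm6b (0.20). For these moves the cause was not tested, apart from the construction of the offsets. Over the 53 named peaks, 41 values lost and 17 gained a call and these 11 turned. The other 991 stayed on their side of the threshold, among them peaks that changed sign without being called under either setting, such as Brd2, Kmt2e, Ier2, Srsf5 and Gfi1 with both offsets. Mouse numbers are not shared between groups, so no block by mouse was fitted, and a block by sequencing run, possible for sex alone, gave 0 sex calls. The simulated data cover peaks of all abundances, so their detection rates are not those of wide peaks.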

Other observations

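The 3 densest wide peaks, picked out after their values were seen, had no protein-coding gene within 50 kb. The densest, chr17:39842996-39848824, had 882 CPM per kb and overlaps the non-coding gene AY036118. It stood at 4010, 4430 and 4930 CPM at 18 months (lowest, median and highest of 6) and at 5190, 5960 and 6330 CPM at 3 months. The ages did not overlap, and the peak was lower under all 6 scalings, with a log2 fold change of -0.41 under TMM factors (edgeR adjusted p = 2.02e-05). The next, chr14:19415712-19419697 at 382 CPM per kb and chr9:3000001-3005320 at 209 CPM per kb, were not called over both sexes with TMM factors, at -0.08 and -0.12, and the former was called higher with abundance offsets, at 0.21 (edgeR adjusted p = 0.0442). In females they were lower, at -0.33 (edgeR adjusted p = 0.0227) and -0.41 (edgeR adjusted p = 0.00461), and in males they stood at 0.17 and 0.18 and were not called. Reads of repeated sequence cannot be placed with certainty at such peaks. Without the densest 26 wide peaks, 1123 were lower and 142 higher at 18 months.

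Some genes were covered by several wide peaks. Gse1, Prl2c3 and Zfpm1 had 7 each, and the 20 genes with 4 or more included Emilin2, Ccnd3, Fam53b, Sema4b and St3gal1. All 7 of Gse1 fell, with log2 fold changes of -1.04 to -0.28. Of the 4 at the cyclin gene Ccnd3 1 fell, and of the 4 at Fam53b 3 fell.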
